A study of Bos taurus with 12 samples.

Results

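The cattle (Bos taurus) transcripts ENSBTAG00000001595, ENSBTAG00000005968, ENSBTAG00000008353 and ENSBTAG00000009112, were described in every blastocyst of a study of OCT4 loss. They are 4 of the 27607 genes in the deposited count table. They were chosen by their measured counts, as genes with few reads in wild-type embryos and more in edited ones, so the difference between the groups is given as a description and carries no test. The study sequenced RNA of 12 single in vitro blastocysts at day 7.5, of which 5 were edited and lacked OCT4 exon 1 and the other 7 had a wild-type genotype. The title names double electroporation of CRISPR-Cas systems against DNA and RNA as the editing method. The labels do not say whether the control embryos were electroporated, nor how complete the deletion was in each edited embryo.

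OCT4, the product of POU5F1, is a POU-family transcription factor that binds DNA together with partners such as SOX2 and sustains the pluripotent state. At the blastocyst stage the embryo consists of an outer trophectoderm, which goes on to form placental tissue, and an inner cell mass, which gives rise to the epiblast and the hypoblast. In cattle, OCT4 is still present in trophectoderm as well as inner cell mass at this stage. Each library here came from part of the lysate of a whole blastocyst, so a change in the number of cells that make a transcript and a change in the amount made per cell cannot be told apart. No identifier in the count table could be matched to a symbol in the RefSeq gene table (0 matched). The 4 genes are therefore given by identifier, without a function, a position or a sequence. Markers of trophectoderm, epiblast, hypoblast and follicle cells were not analysed here for the same reason, and the count of OCT4 itself was not used to check the labels.

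Libraries held 168974 to 4781663 reads assigned to genes. The wild-type libraries lay between 2762133 and 4781663 reads, and so did edited embryos 1 and 3 with 3202922 and 3145326 reads. Edited embryos 4, 5 and 2 were shallower, with 1478796, 778114 and 168974 reads. The share of reads taken by the 50 most abundant genes went the same way, from 15.1% to 17.6% in wild type, 17.2% and 19.6% in edited embryos 1 and 3, and 23.5%, 30.1% and 34.0% in edited embryos 4, 5 and 2. Levels are given as counts per 1000000 reads (CPM) after scaling of library sizes by the TMM method, and intervals are exact 95% Poisson intervals. These intervals cover the counting error of reads alone. Amplified reads are not independent molecules, so the error of counting molecules can be wider than these intervals. On this scale 3 reads were worth 0.583 to 1.03 CPM in a wild-type library. They were worth 0.948, 1.02, 2.45 and 4.65 CPM in edited embryos 1, 3, 4 and 5, and 18.4 CPM in edited embryo 2.

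All 4 genes were higher in edited than in wild-type embryos on average, between 3.86-fold and 12.6-fold by the ratio of the group means. By value, the embryo in which each gene was highest was a different one for every gene. In each gene, however, the counting interval of that embryo met that of another edited embryo. In ENSBTAG00000009112 edited embryos 3, 4 and 5 were alike within counting error. In 3 of the 4 genes the groups did not overlap, the 5 edited values all exceeding the 7 wild-type values. This held for 0.738% of the 11926 genes tested (88 genes), a share that is given for scale only, since the groups' difference chose the 4 genes. Among the 3196 tested genes with a wild-type mean of at most 13.2 CPM, the highest among the 4, it held for 19 genes (0.594%). The 3 genes are among these 19. This share too is for scale only, since 13.2 CPM is the mean of ENSBTAG00000009112 and the 3 genes had 1.21 to 6.69 CPM. Scarce genes can also enter the tested set only because of the edited embryos, as ENSBTAG00000005968 and ENSBTAG00000001595 did. The exception, ENSBTAG00000009112, had 0 reads in edited embryo 2.

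**Figure D1:**
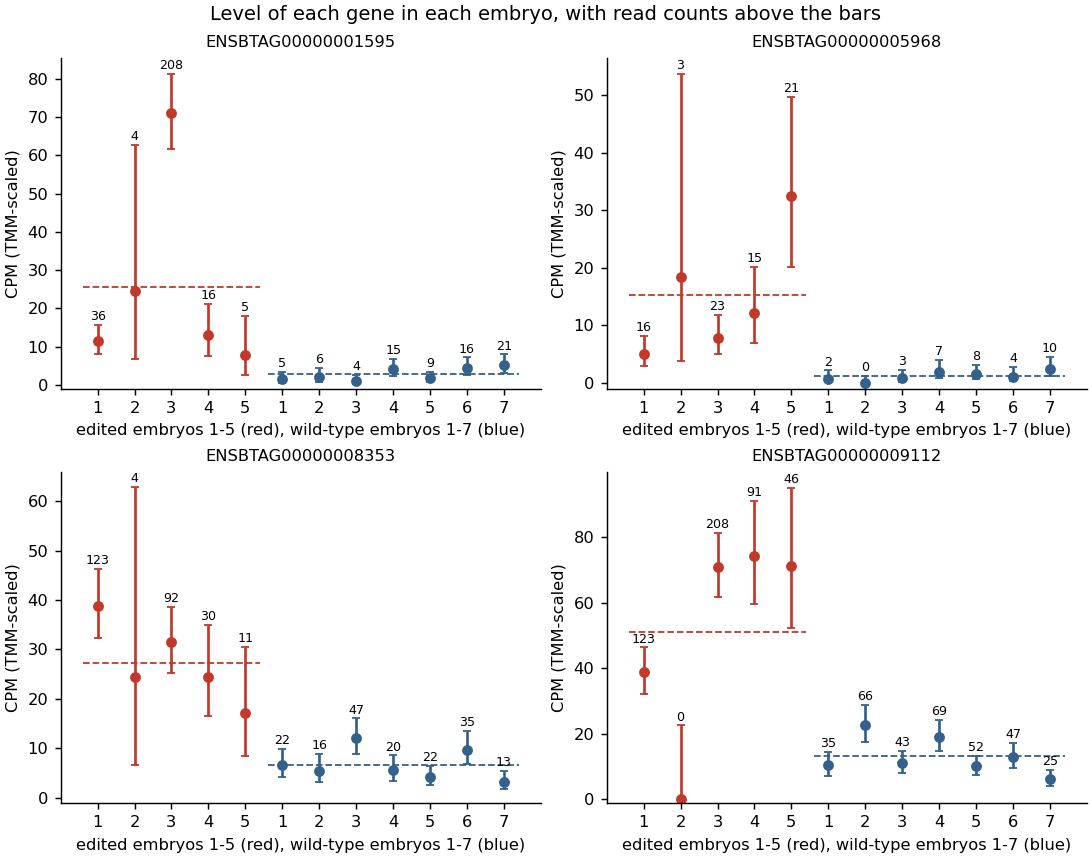
Level of each of the 4 genes (CPM, vertical axis) in the 5 edited (red) and 7 wild-type (blue) embryos. Points are single embryos with exact 95% Poisson intervals, numbers are reads, and dashed lines are group means; edited embryo 3 stands out in ENSBTAG00000001595 with 208 reads, and edited embryo 2 has 0 reads of ENSBTAG00000009112.

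ENSBTAG00000001595 had 36, 4, 208, 16 and 5 reads in edited embryos 1 to 5, which are 11.4, 24.5, 71.1, 13.0 and 7.75 CPM. In wild type it had 4 to 21 reads, with a lowest value of 1.03, a median of 2.06 and a highest value of 5.20 CPM. The groups did not overlap, and the lowest edited embryo, number 5, lay 1.49-fold above the highest wild-type embryo. The group means were 25.6 ± 26.2 CPM in edited (SD, n = 5) and 2.87 ± 1.67 CPM in wild type (SD, n = 7), a ratio of 8.89. Edited embryo 3 supplied 208 of the 269 edited reads (77.3%) and 55.6% of the summed CPM. Without it the ratio of the means was 4.93, and the log2 fold change fitted by edgeR went from 2.92 to 1.92. The other edited embryos lay 2.70-fold to 8.54-fold above the wild-type mean. The lowest of them, edited embryo 5, rests on 5 reads, and its interval of 2.52 to 18.1 CPM held the wild-type mean and overlapped that of wild-type embryo 7, 3.22 to 7.94 CPM. The interval of edited embryo 3, 61.7 to 81.4 CPM, did not meet those of edited embryos 1, 4 and 5, whose upper bounds were 15.7, 21.2 and 18.1 CPM. It did meet that of edited embryo 2, whose 4 reads allow 6.68 to 62.8 CPM.

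ENSBTAG00000005968 was the scarcest of the 4 in reads. It had 16, 3, 23, 15 and 21 reads in edited embryos 1 to 5, or 5.05, 18.4, 7.86, 12.2 and 32.6 CPM. The wild-type embryos had 0 to 10 reads each and 34 in all, with a median of 1.11 and a highest value of 2.47 CPM. Wild-type embryo 2 had 0 reads, where the pooled wild-type rate gives 3.73 reads at its depth. Its 0 reads allow up to 1.03 CPM by the limit of 3 reads, and the exact two-sided interval reaches 1.26 CPM. The groups did not overlap, and the lowest edited embryo, number 1, was 2.04-fold above the highest of wild type, embryo 7. Their counting intervals, 2.89 to 8.21 and 1.19 to 4.55 CPM, overlapped. The group means were 15.2 ± 10.9 CPM in edited (SD, n = 5) and 1.21 ± 0.846 CPM in wild type (SD, n = 7), a ratio of 12.6. In CPM the difference was carried most by edited embryo 5, with 42.8% of the sum, and edited embryo 2, with 24.2%, which are the 2 shallowest libraries. The value of edited embryo 2 rests on 3 reads, with an interval of 3.79 to 53.8 CPM. That of edited embryo 5 rests on 21 reads, with an interval of 20.1 to 49.8 CPM, above the upper bounds of edited embryos 1 and 3 at 8.21 and 11.8 CPM.

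ENSBTAG00000008353 had the smallest coefficient of variation of the 4 over all 5 edited embryos, 30.2%. Without edited embryo 2 it was 33.4%, above the 26.2% of ENSBTAG00000009112, whose 0 reads in that embryo set the order. It had 123, 4, 92, 30 and 11 reads in edited embryos 1 to 5, or 38.9, 24.5, 31.4, 24.5 and 17.1 CPM. Wild-type embryos had 13 to 47 reads, with a lowest value of 3.22, a median of 5.55 and a highest value of 12.1 CPM. All edited values were above all wild-type values, and the nearest pair, edited embryo 5 and wild-type embryo 3, differed 1.41-fold. The counting intervals of that pair, 8.51 to 30.5 and 8.87 to 16.1 CPM, overlapped. Group means were 27.3 ± 8.24 CPM (SD, n = 5) and 6.69 ± 3.13 CPM (SD, n = 7), a ratio of 4.07. No single edited embryo held more than 28.5% of the summed CPM, and counting alone at these depths gives a coefficient of variation of 25.9%. Leaving out edited embryo 1, the highest, gave a ratio of 3.64.

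ENSBTAG00000009112 had the most wild-type reads of the 4. Edited embryos 1 to 5 had 123, 0, 208, 91 and 46 reads, which are 38.9, 0, 71.1, 74.2 and 71.3 CPM. Wild-type embryos had 25 to 69 reads, with a lowest value of 6.19, a median of 11.0 and a highest value of 22.6 CPM. Edited embryos 3, 4 and 5 had nearly the same level, with overlapping intervals, although their depths differ widely. Edited embryo 1 lay below them, at 32.3 to 46.4 CPM, and above all wild-type embryos. Edited embryo 2 was the only edited embryo without a read. Its 0 reads allow up to 18.4 CPM by the limit of 3 reads, and the exact two-sided interval reaches 22.6 CPM, the level of the highest wild-type embryo. Both limits lie below the intervals of the other 4 edited embryos. Group means were 51.1 ± 32.0 CPM in edited (SD, n = 5) and 13.2 ± 5.70 CPM in wild type (SD, n = 7), a ratio of 3.86. Without edited embryo 2 the edited mean was 63.9 ± 16.7 CPM (SD, n = 4) and the ratio 4.83, and the 4 remaining edited embryos did not overlap with wild type.

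Equal counts occurred between the genes in a few libraries, as 208 reads of both ENSBTAG00000001595 and ENSBTAG00000009112 in edited embryo 3 and 123 reads of both ENSBTAG00000008353 and ENSBTAG00000009112 in edited embryo 1. Each such pair of genes was equal in 1 of 12 embryos and differed in the other 11, so these are not the same row entered again.

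The edited embryos that carried the difference were not the same from gene to gene. By value, ENSBTAG00000008353 was highest in edited embryo 1, ENSBTAG00000001595 in embryo 3, ENSBTAG00000009112 in embryo 4 and ENSBTAG00000005968 in embryo 5. Edited embryo 5 was also the lowest edited embryo for ENSBTAG00000001595 and ENSBTAG00000008353. In each gene the counting interval of the highest embryo met that of another edited embryo, so which embryo was highest is not settled. Against the wild-type mean, edited embryo 5 was 27.0-fold higher in ENSBTAG00000005968 and 2.55-fold higher in ENSBTAG00000008353. Edited embryo 3 was 24.7-fold higher in ENSBTAG00000001595 and 6.51-fold higher in ENSBTAG00000005968. Edited embryos 1, 3, 4 and 5 exceeded the highest wild-type value in all 4 genes, and edited embryo 2 in 3 of 4.

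**Figure D2:**
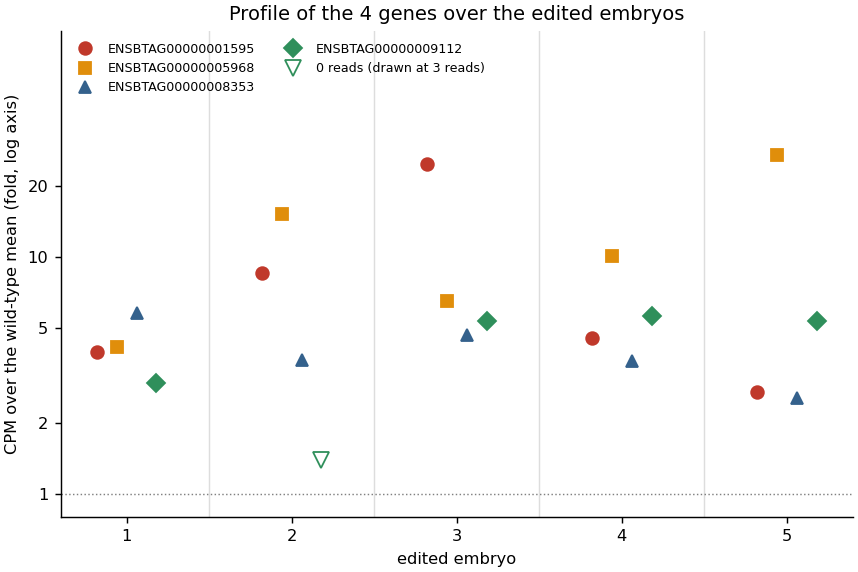
CPM of each gene in each edited embryo divided by its wild-type mean (log axis; the dotted line is the wild-type mean, the open triangle stands for 0 reads and is drawn at the value of 3 reads). The 2 highest points are ENSBTAG00000005968 in edited embryo 5, at 27.0-fold, and ENSBTAG00000001595 in edited embryo 3, at 24.7-fold.

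Whether the genes vary together was then read within each group, since a correlation over both groups would repeat the choice of the genes. Among the 5 edited embryos, which are too few for a correlation, the order of the embryos was compared gene by gene. Of the 10 pairs of edited embryos, 7 stood in the same order in ENSBTAG00000001595 and ENSBTAG00000008353 and 6 in ENSBTAG00000005968 and ENSBTAG00000009112. Only 1 of 10 stood in the same order in ENSBTAG00000005968 and ENSBTAG00000008353, whose orders over the edited embryos were nearly opposite. The other pairs of genes shared the order of 3 or 4 of 10 pairs of embryos. Orders that rest on 3 or 4 reads in edited embryo 2 are within counting error. So are others, among them the orders of edited embryos 3, 4 and 5 in ENSBTAG00000009112. The same holds for edited embryos 1 and 3 in ENSBTAG00000008353. The counts of pairs in the same order include these unresolved orders.

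Among the 7 wild-type embryos none of the 6 pairs of genes had a correlation that passed an exact two-sided permutation test after Benjamini-Hochberg adjustment over the 6 pairs. The strongest were between ENSBTAG00000005968 and ENSBTAG00000009112 (Pearson r = -0.58, exact p = 0.171, adjusted 0.524; Spearman rho = -0.50, exact p = 0.267, adjusted 0.454) and between ENSBTAG00000001595 and ENSBTAG00000005968 (r = 0.57, exact p = 0.175, adjusted 0.524; rho = 0.61, exact p = 0.167, adjusted 0.454). Without the 2 embryos farthest from the median of the first gene, the former became 0.65 (exact p = 0.217) and the latter 0.39 (exact p = 0.5). The negative value of the former thus rests on those embryos. The other 4 pairs had r from -0.42 to 0.27 and adjusted p from 0.614 to 0.843 by the exact test. With 7 embryos the smallest exact p is 0.000397, so a call is possible, but only for a correlation well above those seen here. The few reads also widen every value, so a moderate relation between the genes could be missed. The coefficients of variation in wild type were 58.1%, 70.2%, 46.7% and 43.1% for ENSBTAG00000001595, ENSBTAG00000005968, ENSBTAG00000008353 and ENSBTAG00000009112, and counting alone gives 30.7%, 47.4%, 20.1% and 14.3%. In the edited embryos without embryo 2 they were 117.2%, 86.2%, 33.4% and 26.2%, against 17.1%, 22.9%, 16.4% and 10.9% from counting. In ENSBTAG00000001595 edited embryo 3 carries the spread, since the coefficient of variation was 102.5% over all 5 edited embryos and 51.1% without embryo 3, where counting gives 39.4%.

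Depth was then set beside the values. At the pooled wild-type rate edited embryo 2 would hold 0.466 reads of ENSBTAG00000001595, 0.209 of ENSBTAG00000005968, 1.07 of ENSBTAG00000008353 and 2.07 of ENSBTAG00000009112, and it held 4, 3, 4 and 0. Scaled to the depth of edited embryo 2, the wild-type embryos would have 0.168 to 0.847 reads of ENSBTAG00000001595, 0 to 0.404 of ENSBTAG00000005968, 0.525 to 1.97 of ENSBTAG00000008353 and 1.01 to 3.69 of ENSBTAG00000009112. At that depth the first 2 of these would be below 1 read in every wild-type library. In edited embryo 2 the lower bounds of the counting intervals, 6.68, 3.79 and 6.68 CPM, lay above the wild-type means of ENSBTAG00000001595 and ENSBTAG00000005968 and at that of ENSBTAG00000008353. Its 0 in ENSBTAG00000009112 is not distinguishable from the wild-type level at this depth.

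In the edited embryos with as many reads as wild type, all 4 genes had higher values. These embryos are among those whose counts chose the genes. Their higher values, and the share of genes set beside them, are therefore a description and no separate check. Edited embryo 3 was matched in total reads but not in detected genes, with 15775 against 16369 to 17760 in wild type. The share of its 50 most abundant genes was also higher, as given above. Edited embryo 1, with 16800 detected genes and a share of 17.2%, was within the wild-type range in both. Edited embryos 1 and 3, whose read totals lie within the wild-type range, were both above every wild-type embryo in 4 of 4 genes, which held for 8.45% of 13228 genes tested in those 9 embryos. The ratio of their mean to the wild-type mean was 14.3 for ENSBTAG00000001595, 5.35 for ENSBTAG00000005968, 5.25 for ENSBTAG00000008353 and 4.16 for ENSBTAG00000009112. For ENSBTAG00000005968 this is less than the 12.6 over all 5, and the edgeR log2 fold change was 1.97 in place of 2.96. In this gene the shallower edited embryos 4, 5 and 2 all lay above edited embryos 1 and 3. Within the edited group its level was thus higher in the shallower libraries. In ENSBTAG00000001595 and ENSBTAG00000008353, by contrast, the highest edited embryo was one of the deep libraries. ENSBTAG00000008353 fell from 38.9 to 17.1 CPM over edited embryos 1, 3, 4 and 5 in order of depth, with edited embryo 2 at 24.5 CPM.

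**Figure D3:**
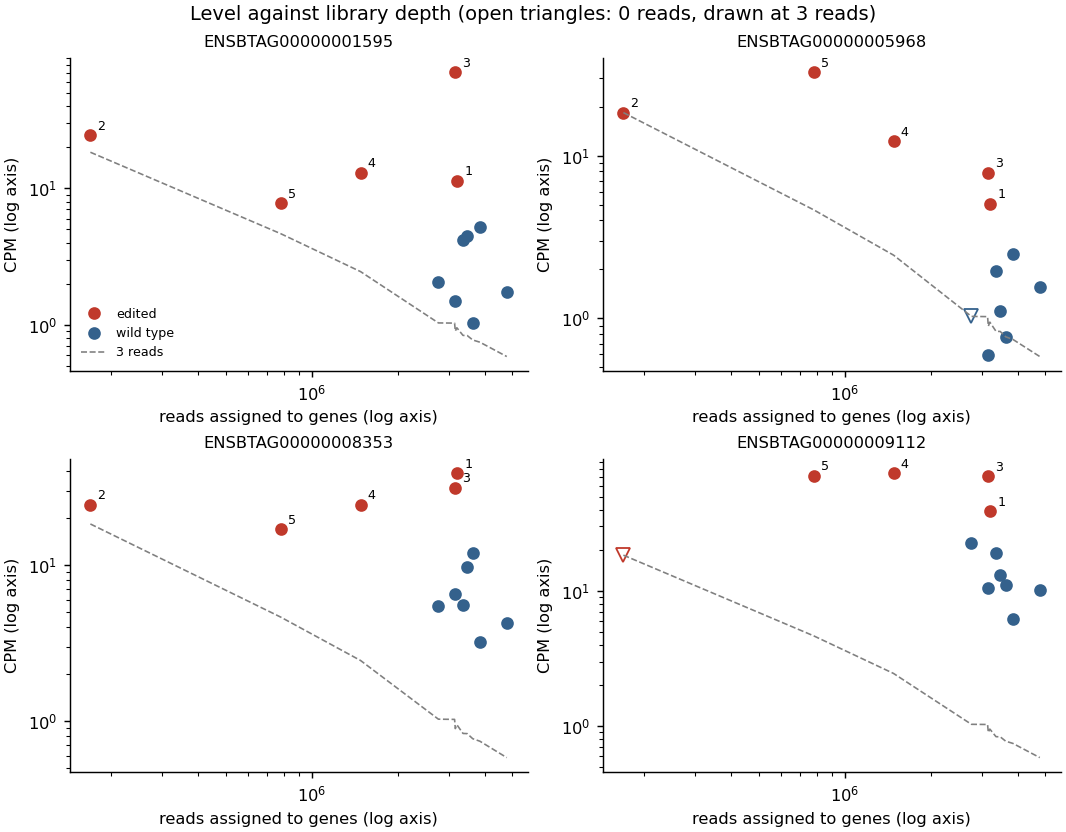
CPM of each gene against the reads assigned to genes in each library (both axes logarithmic), with edited embryos in red and numbered and wild-type embryos in blue. The dashed line is the value of 3 reads and open triangles are libraries with 0 reads; edited embryos 1 and 3, which share the depth of wild type, lie above all blue points in all 4 panels.

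Within wild type, where depth does not go with genotype, none of the 4 genes had a correlation of log2 CPM with log2 total reads that passed the exact permutation test (Benjamini-Hochberg over 4). For ENSBTAG00000005968 r was 0.69 (exact p = 0.0863, adjusted 0.244) and rho 0.68 (exact p = 0.11, adjusted 0.219), and without the 2 embryos farthest from the median depth r was 0.57 (exact p = 0.308). For ENSBTAG00000009112 r was -0.63 (exact p = 0.122, adjusted 0.244) and rho -0.75 (exact p = 0.0663, adjusted 0.219), and without those embryos r was -0.59 (exact p = 0.267). For ENSBTAG00000001595 and ENSBTAG00000008353 r was 0.01 and -0.26 (both adjusted p at least 0.782 by the exact test). The sign for ENSBTAG00000005968 was opposite to its course in the edited embryos, where the shallower libraries were higher. The range of depth in wild type is narrow beside that of the edited embryos. With log2 library size as a covariate in the edgeR fit over all 12 embryos, the log2 fold change of ENSBTAG00000005968 went from 2.96 to 2.23. Those of ENSBTAG00000001595, ENSBTAG00000008353 and ENSBTAG00000009112 went from 2.92, 1.95 and 1.99 to 3.23, 2.14 and 2.35. Depth goes with genotype in these embryos, so the fit separates the pair only in part.

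Leaving out edited embryo 2 changed the calls far more than the values. Fitted by edgeR over all 12 embryos, the log2 fold changes of ENSBTAG00000001595, ENSBTAG00000005968, ENSBTAG00000008353 and ENSBTAG00000009112 were 2.92, 2.96, 1.95 and 1.99, with a median of 2.46 beside -0.05 over all 11926 genes tested. Without edited embryo 2 they were 2.95, 2.93, 1.98 and 2.2, with a median of 2.57 beside -0.02 over 12308 genes. The value of ENSBTAG00000009112 moved by 0.21 and those of the other genes by at most 0.04. In edgeR's quasi-likelihood test over all genes 0 of the 4 were called higher with all 12 embryos (adjusted p under 0.05), where 0.0252% of all genes were. At an unadjusted p under 0.05 all 4 were higher, as were 886 of the 11926 genes tested (7.43%). DESeq2 called all 4, and 356 of its 13507 tested genes were called higher (2.64%). Without edited embryo 2 the quasi-likelihood test called 4 of 4, where 3.66% of all genes were called higher. The groups then did not overlap in any of the 4 genes, and edited values exceeded wild-type values in this way for 3.08% of genes. These counts use the contrast that chose the genes, and nothing is read from them about the genes. The common dispersion, the squared coefficient of variation shared by all genes, was 0.201 over 12 embryos and 0.151 without edited embryo 2. The dispersion of ENSBTAG00000009112 went from 0.217 to 0.127, whereas that of ENSBTAG00000001595 (0.429 and 0.440), ENSBTAG00000005968 (0.402 and 0.432) and ENSBTAG00000008353 (0.179 and 0.175) did not fall by more than 0.004.

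With each of the 12 embryos left out in turn, the log2 fold changes ranged from 1.92 to 3.15 for ENSBTAG00000001595, from 2.44 to 3.22 for ENSBTAG00000005968, from 1.78 to 2.13 for ENSBTAG00000008353 and from 1.84 to 2.2 for ENSBTAG00000009112. The lowest values came without edited embryo 3, edited embryo 5, edited embryo 1 and edited embryo 3, in that order of genes. Leaving out a wild-type embryo moved each value by at most 0.18. ENSBTAG00000001595 was called without edited embryo 1 or 2, ENSBTAG00000005968 without edited embryo 1, 2 or 3, and ENSBTAG00000008353 and ENSBTAG00000009112 only without edited embryo 2. The share of all tested genes called higher was 0.329% when edited embryo 1 was left out, 3.66% when embryo 2 was and 0.147% when embryo 3 was, and again nothing is read from the calls of the 4 genes.

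**Figure D4:**
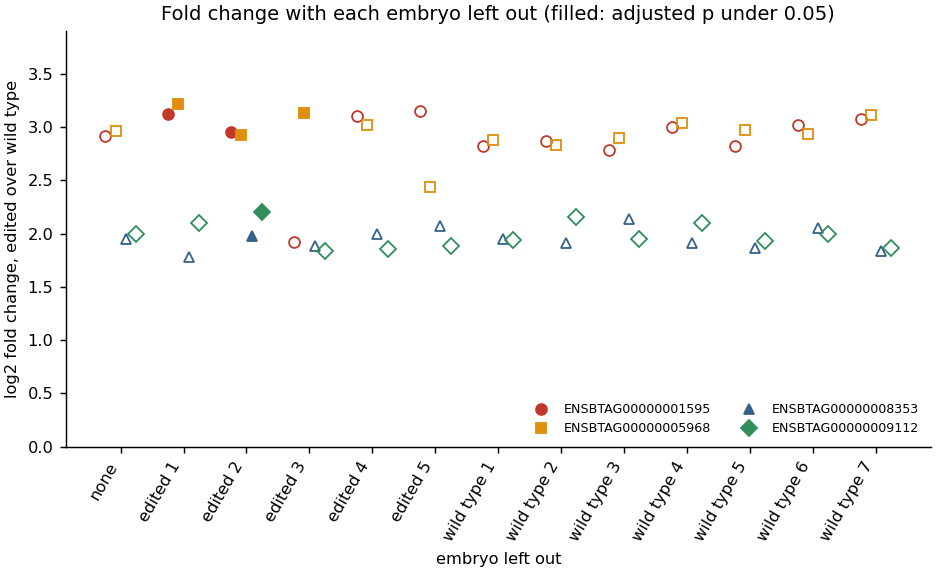
Log2 fold change (edited over wild type, edgeR with a prior count of 2) of each gene with all embryos and with each embryo left out in turn. Filled symbols mark fits with an adjusted p under 0.05, which for all 4 genes occurs only without edited embryo 2; the fold changes themselves stay between 1.78 and 3.22.

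For each gene the most similar gene among the other 11925 tested was found by Pearson's r of log2 CPM over the 12 embryos. These values include the difference between the groups and are the highest of many, so they are a description without a test. For ENSBTAG00000001595 it was ENSBTAG00000014841 (r = 0.95), with a wild-type mean of 36.4 ± 10.8 CPM (SD, n = 7) and an edited mean of 84.4 ± 23.3 CPM (SD, n = 5), again highest in edited embryo 3. For ENSBTAG00000005968 it was ENSBTAG00000050696 (r = 0.913), barely ahead of the next gene (r = 0.912). ENSBTAG00000050696 had a wild-type mean of 86.3 ± 13.2 CPM (SD, n = 7) and an edited mean of 129.5 ± 30.7 CPM (SD, n = 5). Its level was highest in edited embryos 2 and 5. The groups overlapped, as wild-type embryo 7 (105.4 CPM) lay above edited embryos 3 and 4 (102.2 and 104.4 CPM). For ENSBTAG00000009112 it was ENSBTAG00000002939 (r = 0.98), which like it was almost without reads in edited embryo 2 (6.13 CPM) and stood at 160.8 to 313.2 CPM in the other edited embryos. As many as 173 genes had r above 0.9 with ENSBTAG00000009112, and 27 did without edited embryo 2. Without that embryo the most similar gene changed for these 3 genes.

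ENSBTAG00000008353 kept its nearest gene, ENSBTAG00000038141, with r = 0.93 over 12 embryos and 0.99 over the 11 without edited embryo 2. Both genes rest on few reads in that embryo, where 3 reads are worth 18.4 CPM. ENSBTAG00000038141 had 43.6, 12.3, 35.2, 34.3 and 20.2 CPM in edited embryos 1 to 5 and 4.21 to 15.0 CPM in wild type. Like ENSBTAG00000008353, it was lowest in wild-type embryo 7, and the embryos with the highest wild-type levels of both were numbers 3 and 6. The next most similar gene over 11 embryos had r = 0.93. Whether the 2 genes overlap or share reads was not examined, because their positions and the counting of shared reads were not used here. None of the 4 genes was the nearest gene of another.

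**Figure D5:**
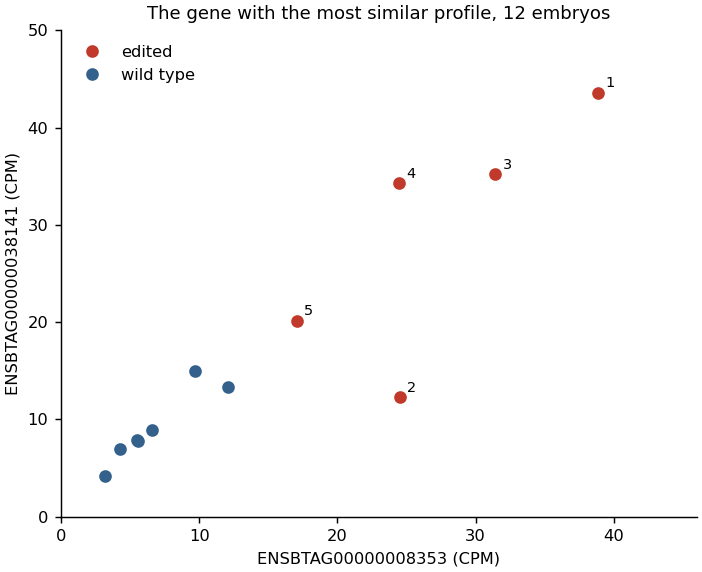
CPM of ENSBTAG00000038141 (vertical axis) against CPM of ENSBTAG00000008353 (horizontal axis) in the 12 embryos, with edited embryos in red and numbered and wild-type embryos in blue. Most points lie near a line. Edited embryo 2 lies below it, with 24.5 CPM of ENSBTAG00000008353 and 12.3 CPM of ENSBTAG00000038141. Edited embryo 4 lies above it, with 24.5 and 34.3 CPM.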

How the data were processed

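RNA was sequenced from 12 single blastocysts. Per the labels' protocols, lysate was divided between tubes, RNA was isolated with TRIzol, and a modified mcSCRB-seq method amplified the cDNA. HISAT2 2.2.1, SAMtools 1.17 and featureCounts 2.0.1 are named in the submitters' processing notes with build ARS-UCD1.2. Not given in the sources used here were the annotation, the strandedness of the counting and whether molecules were collapsed, so counts of genes that overlap, lie antisense or have close copies are uncertain. The authors deposited raw read counts per gene, without normalisation. All 12 columns were matched to samples by name, and groups came from the genotype label. Embryos were numbered in accession order, which pairs nothing. The labels name no sire, batch or day of collection, so p-values measure the spread between these embryos.

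The 4 genes, the marker lists and the tests were chosen with earlier results of these data known. The genes passed filterByExpr (10 reads at the median depth, in 5 embryos). ENSBTAG00000005968 and ENSBTAG00000001595 passed only because of the edited embryos. The former reached the cut in 0 wild-type embryos and the latter in 3, and each reached it in 5 edited embryos. The fit over all genes used R 4.3.3 and edgeR 4.0.16 (TMM, filterByExpr, robust dispersions, glmQLFit, glmQLFTest, two-sided), group as the only term, Benjamini-Hochberg adjustment at 0.05, and was tested on simulated data. Fold changes are edgeR coefficients with a prior count of 2 and understate the change of scarce genes; ratios are of mean CPM. Correlations used exact permutation over all 5040 pairings of 7 embryos (Python 3.11.15, numpy 2.4.6, scipy 1.17.1). The genes named beside the 4 are the most similar gene to each by r over 12 embryos. Planned lists by gene symbol were not run, as 0 identifiers matched. DESeq2 1.42.0, other scalings, no filter, depth as a covariate and each embryo left out were the alternatives; the fit of edited embryos 1 and 3 alone, the bias-adjusted deviances, DESeq2 without edited embryo 2, the fold changes of DESeq2 and the difference of mean log2 CPM were added after seeing the data.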

Additional observations from a re-analysis of the deposited data

Results flagged for a closer look

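ENSBTAG00000001595 stood at 71.1 CPM in edited embryo 3, apart from the other edited embryos. Its gap to the next embryo, edited embryo 2 at 24.5 CPM, came to 0.735 of the spread from lowest to highest edited embryo, where Dixon's test has its critical value at 0.71. It was the 1 value that stood apart in 8 groups of values (4 genes in each genotype). For values of equal precision chance gives about 1 in 20 such groups. That rate does not carry over here, since the edited values chose the genes and the edited libraries differ widely in depth. The value rests on 208 reads in a library of 3145326 reads, and the wild-type rate would give 8.37 reads at that depth. The counting intervals of edited embryos 3 and 2 meet, since that of embryo 2 reaches 62.8 CPM.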

How the results depend on the processing

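Each log2 fold change kept its sign in all 23 alternatives run for it, from 1.92 to 3.61 for ENSBTAG00000001595, 1.97 to 3.54 for ENSBTAG00000005968, 1.76 to 2.29 for ENSBTAG00000008353 and 0.97 to 2.35 for ENSBTAG00000009112, where 0.97 is the difference of mean log2 CPM with edited embryo 2 weighted like the others. Only ENSBTAG00000001595 and ENSBTAG00000005968 moved by more than 1 SD between embryos. The former did so without edited embryo 3 (with one embryo left out, 1.92 to 3.15), the latter in edited embryos 1 and 3 only (1.97). For ENSBTAG00000009112 that SD was 1.91, close to its log2 fold change of 1.99, so its 0.97 did not count as moved. The SD of log2 CPM in its edited embryos was 2.93, and 0.442 without edited embryo 2. The genes called higher over all 12 embryos numbered 3, with 0 of the 4 among them. No filter gave 27 (3 of the 4), log2 library size as a covariate 33 (2), edited embryos 1 and 3 only 166 (3), bias-adjusted deviances 119 (4) and 528 (4) without edited embryo 2, and DESeq2 356 (4) and 881 (4) without edited embryo 2. Leaving out each embryo gave 1 to 451 genes and 0 to 4 of the 4. RLE scaling and library size alone left both counts as they were, and the groups did not overlap in 3 of the 4 genes under both; that count was 4 without edited embryo 2 and 3 without any other embryo. In wild type, no correlation passed with Spearman's rho, library size alone or a prior count of 0.5. None passed without the 2 farthest embryos, where 5 embryos allow no exact p below 0.0167 before adjustment and a single pair could not pass. There the r of ENSBTAG00000009112 with ENSBTAG00000001595 turned from -0.09 to 0.67 and with ENSBTAG00000005968 from -0.58 to 0.65; the cause was not tested. Depth limits edited embryo 2, where each gene had at most 4 reads. No paired analysis was possible because the labels name no sire, batch or day of collection by which embryos could be paired.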
